A study of Mus musculus with 6 samples.

Results

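The transcripts described here are 37 genes of the hypoxia response and of glycolysis, chosen by their symbols from the 18404 genes of a read-count table of mouse ear skin. They fall into 3 blocks: 8 genes for the hypoxia-inducible factors (HIFs) and their regulators, 14 HIF target genes, and 15 glycolysis enzymes. All 37 were in the table and all 37 passed the filter on low counts, among 14920 genes tested. Ear skin was taken at postnatal day 3, giving 3 libraries labelled ecko, in which Kdr was deleted in endothelium on tamoxifen, and 3 libraries of control mice, which the design text calls littermates. Kdr encodes VEGFR2, the main receptor for VEGF-A on endothelial cells. Both groups are recorded as treated with tamoxifen, from postnatal day 1 at 60 µg per day, and the series name gives 48 h. The Cre line and the controls' alleles are not given in the sources used here, nor is it stated that each library came from its own animal. The p-values therefore measure the spread between these samples, which may be technical. The samples are whole skin, so each value pools endothelial cells with keratinocytes, fibroblasts, muscle and other cells.

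In cells with enough oxygen, the HIF alpha subunits are hydroxylated by the EGLN enzymes, bound by the VHL protein and degraded. When oxygen falls, the alpha subunits persist, pair with ARNT and bind short DNA elements beside genes for glucose uptake, glycolysis, lactate export, matrix hydroxylation and vessel growth. Among these targets is Vegfa, so the pathway lies upstream of the receptor deleted here, and Egln3 is itself a HIF target that feeds back on the pathway.

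Each library held 16987130 to 17979182 expected counts, that is, estimated reads per gene. Kdr (chromosome 5, 75932827 to 75979072, GRCm38.p6) had 19.4, 24.2 and 21.6 CPM (counts scaled to the size of each library) in ecko, against 89.9, 102.9 and 77.1 CPM in controls. Kdr fell by 2.05 on the log2 scale (SE 0.12, edgeR adjusted p 0.0002). The 12 pan-endothelial markers had log2 fold changes of -0.29 to 0.01, with a median of -0.17, all far smaller in size than that of Kdr. Each group held 1 library with almost no reads of the Y-linked Ddx3y, ecko 3 with 6 counts and control 2 with 4, against 1445 to 1641 in the other libraries. Control 3 stood apart in its skeletal muscle markers, with a mean of 7.19 log2 CPM, against 7.64 to 7.88 in ecko and 7.76 and 7.99 in the other controls. Keratinocyte and fibroblast markers were abundant in every library.

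None of the 37 members was past the test in either direction. The edgeR quasi-likelihood test, adjusted by Benjamini-Hochberg over 14920 genes at a threshold of 0.05, called 0% of genes higher in ecko and 0.0067% lower, that is, Kdr alone. At an unadjusted p under 0.05 there were 4 members with a higher mean in ecko and 2 with a lower one, and the smallest adjusted p was 0.455 (Egln3). At that unadjusted level 4.92% of all genes tested were higher and 4.1% lower, together 9.01%. DESeq2, which called 0.583% of all genes higher and 0.174% lower, together 0.757%, also called 0 members. A fit with the replicate number as a block, which called 0.59% higher and 0.067% lower (together 0.657%), called 0 members as well. For 33 of the 37 members the 95% interval of the fold change lay within 1.5-fold in both directions. The other 4 were Slc2a1, Car9, Ankrd37 and Pfkfb3.

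**Figure D1:**
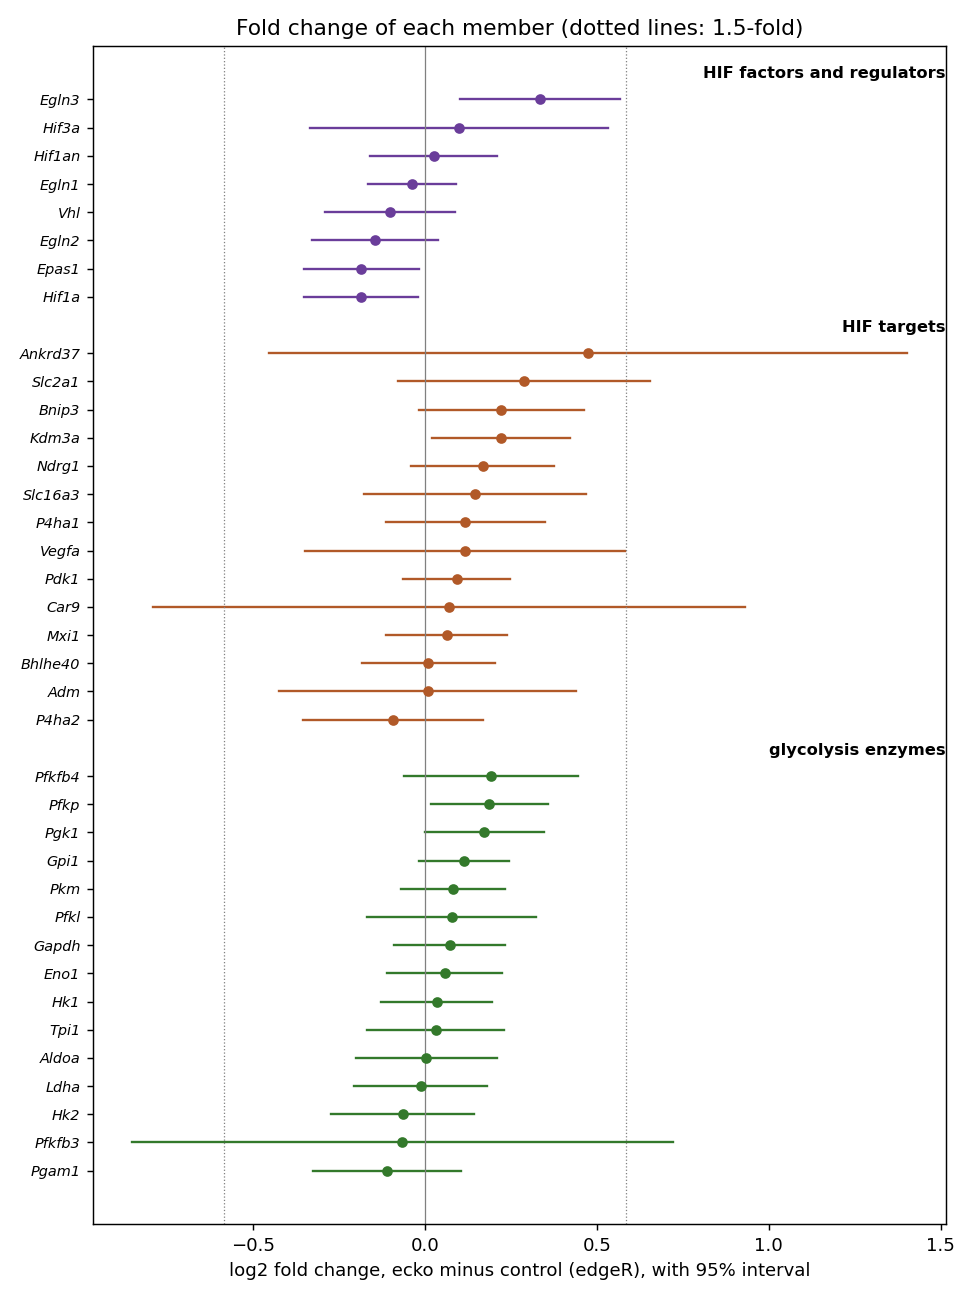
Log2 fold change of each of the 37 members, ecko minus control, on the horizontal axis, with its 95% interval from the edgeR fit as a line. Genes run down the page by block and by fold change, and dotted lines mark 1.5-fold; the intervals of 33 members lie between them, and those of Slc2a1, Car9, Ankrd37 and Pfkfb3 cross one or both.

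The groups did not overlap in 5 of the 37 members. In 3 of them (Egln3, Gpi1 and Pfkp) all ecko libraries lay above all controls, where 7.55% of all genes tested did so. In 2 of them (Epas1 and Egln2) all ecko libraries lay below, where 8.11% of all genes did so. The member shares, 8.11% higher and 5.41% lower, were close to these shares over all genes. The count moved with single libraries. Without control 1 there were 12 members above, or 32.4%, where the share over all genes was 15%. Without control 2 there were 6 members below, or 16.2%, against 13.7% of all genes, and 5 above, or 13.5%, against 12.7%. Without ecko 1 there were 7 above, or 18.9%, against 10% of all genes. Without ecko 2 there were 5 above, or 13.5%, against 13% of all genes, and 4 below, or 10.8%, against 13.8%. Other shares lay under those of all genes. Without control 3 there were 3 above (8.11% against 13.3%) and 3 below (8.11% against 13.2%). Without ecko 3 there were 4 above (10.8% against 13.3%) and 2 below (5.41% against 13.3%). Members below numbered 2 without control 1 (5.41% against 15.7%) and 3 without ecko 1 (8.11% against 10.9%).

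Among the HIF genes and their regulators, the transcripts of both main alpha subunits had slightly lower means in ecko. Hif1a, the broadly expressed alpha subunit (chromosome 12, 73901324 to 73947554), had 117, 135 and 123 CPM in ecko, against 142, 132 and 152 CPM in controls. Ecko 2 lay above control 2, so the groups overlapped by 1 pair of libraries. The log2 fold change was -0.19 (SE 0.07, edgeR adjusted p 0.531), with a 95% interval of -0.35 to -0.02. Epas1 encodes HIF-2 alpha, the subunit first named for its expression in endothelium (chromosome 17, 86753864 to 86833410). It had 99.4, 89.0 and 91.7 CPM in ecko, against 100.7, 116.5 and 101 CPM in controls. Every ecko value lay below every control value, ecko 1 by little. Its log2 fold change was -0.18 (SE 0.08, edgeR adjusted p 0.532), with an interval of -0.35 to -0.02. Endothelial markers lay on the same side: 11 of 12 had a lower mean in ecko, and none was past the test. For differences of this size in bulk tissue, fewer endothelial cells and less RNA per cell cannot be told apart. Their summed level was 504.6 to 538.5 CPM in ecko and 552.4 to 654.9 CPM in controls, and none was at 0. The part of these markers in the Epas1 values was not tested. Hif3a, which encodes a further alpha subunit, was much less abundant per length, at 1.20 CPM per kb in ecko and 1.12 in controls, beside 26.4 and 30.1 for Hif1a and 16.9 and 19.2 for Epas1.

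The means of the oxygen-sensing enzymes differed in sign. Egln1, the main HIF prolyl hydroxylase, had 92.3, 96.7 and 93.6 CPM in ecko and 98.5, 94.1 and 96.9 CPM in controls. These values interleaved, and the interval of the log2 fold change, -0.16 to 0.09, was the narrowest of the 37 members. Egln2, a further HIF prolyl hydroxylase, had 39.1, 42.2 and 43.1 CPM in ecko and 44.0, 50.0 and 43.4 CPM in controls. The ecko values were all lower, but ecko 3 and control 3 were almost equal (log2 fold change -0.14, SE 0.08, adjusted p 0.624). Egln3, the hypoxia-inducible member of the family (chromosome 12, 54178981 to 54203874), had 61.5, 63.7 and 62.8 CPM in ecko, against 59.1, 44.3 and 45.5 CPM in controls. The 3 ecko libraries were almost equal, control 1 lay just under them, and the other controls lay well below. The mean was 62.7 ± 1.11 CPM in ecko and 49.6 ± 8.20 CPM in controls (SD, n = 3 each), a 1.26-fold difference. Its log2 fold change of 0.34 (SE 0.10) had an interval of 0.10 to 0.57 and did not pass (edgeR adjusted p 0.455). Over the alternatives run, that adjusted p ranged from 0.0969 to 0.980.

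The promoters of Egln3 and Egln2 are shown because these were the hydroxylase genes whose groups did not overlap, one higher and one lower in ecko. The sequences are RefSeq's, on GRCm38.p6, and give 250 bases that end just before the annotated start, on the strand of the gene, 5′ to 3′. Capitals mark the core of the hypoxia response element, searched as ACGTG and GCGTG on both strands, so that CACGT and CACGC are the same core on the other strand. For Egln2, which has more than 1 annotated start, the most upstream one is shown.
Egln3 (chr12:54203875-54204124, minus strand): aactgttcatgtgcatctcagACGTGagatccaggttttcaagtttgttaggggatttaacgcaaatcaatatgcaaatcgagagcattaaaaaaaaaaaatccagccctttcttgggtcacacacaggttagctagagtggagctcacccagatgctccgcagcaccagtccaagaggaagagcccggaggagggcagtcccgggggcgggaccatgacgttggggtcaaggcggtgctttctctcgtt
Egln2 (chr7:27166803-27167052, minus strand): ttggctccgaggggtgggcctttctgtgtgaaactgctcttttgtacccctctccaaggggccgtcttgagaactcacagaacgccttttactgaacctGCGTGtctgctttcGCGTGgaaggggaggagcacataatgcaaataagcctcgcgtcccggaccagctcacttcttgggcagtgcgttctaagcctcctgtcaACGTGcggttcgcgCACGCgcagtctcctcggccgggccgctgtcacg
Egln3 held 1 core, 229 bases before the start, and Egln2 held 4. The core also lies in CACGTG, an element bound by other basic helix-loop-helix factors, where the matches on both strands overlap. RefSeq promoter windows of 300 bases, reaching 50 bases past the start, were matched for 34 of the 37 members, and Epas1, Ndrg1 and Bhlhe40 had none. Of these 34 genes, 30 (88.2%) held the core in at least 1 window, as did 64.4% of the 11692 tested genes with a window. By window the shares were 75.5% of 49 and 58.7% of 14894, with a median GC content of 63.3% and 60%. CACGTG was in 10.2% of the member windows and in 9.27% of those of genes tested. A match describes the letters only.

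Set against its family, Egln3 made up a larger part of the prolyl hydroxylase transcripts in ecko. Per transcript length, it was 34.3%, 33.8% and 33.7% of the summed Egln1, Egln2 and Egln3 level in ecko, against 31.5%, 25.0% and 26.5% in controls. All ecko shares lay above all control shares. The share is built from the same values, with Egln3 higher and Egln2 lower in every ecko library than in any control. These shares are therefore not a separate observation. The mean share was 33.9 ± 0.35% in ecko and 27.6 ± 3.41% in controls (SD, n = 3 each). The share was computed after the separate genes' values were known, so it was not tested.

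**Figure D2:**
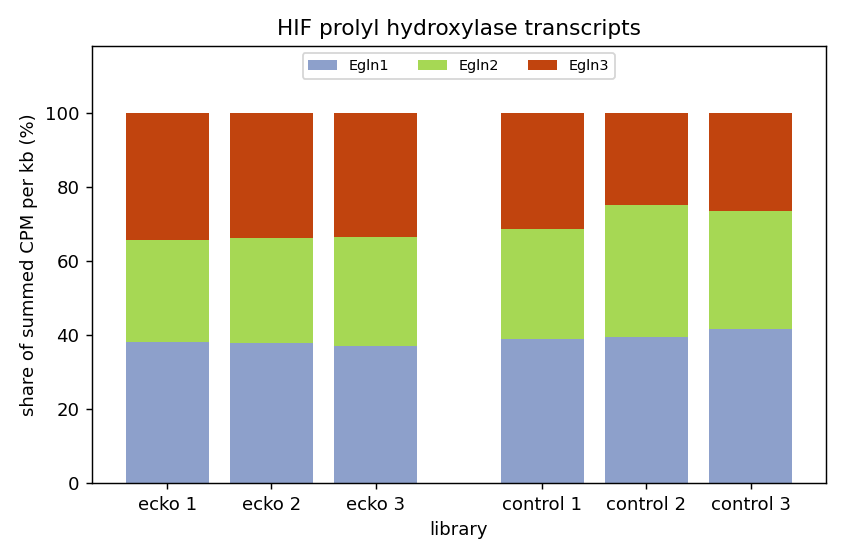
Share of the summed level of Egln1, Egln2 and Egln3 (CPM per kb of the longest annotated transcript) taken by each gene, in percent, in each ecko and control library. The Egln3 part is 33.7% to 34.3% in the ecko libraries and 25.0% to 31.5% in the controls.

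The remaining regulators had overlapping groups. Vhl, which recruits hydroxylated HIF alpha for degradation, had 32.6, 30.2 and 31.9 CPM in ecko and 32.3, 32.2 and 37.1 CPM in controls (log2 fold change -0.10, SE 0.09, adjusted p 0.734). Control 3 was the highest library for Vhl. Hif1an, an asparagine hydroxylase that blocks HIF transactivation, had 101.1 ± 1.58 CPM in ecko and 99.3 ± 11.8 CPM in controls (SD, n = 3 each). Over the 8 genes of this block the median log2 fold change was -0.07, with 3 means higher and 5 lower, where the median over all genes tested was -0.002.

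Of the 14 HIF targets, 13 had a higher mean in ecko, but by small amounts, and in all 14 the groups overlapped. Over all genes tested, 49.5% had a higher mean in ecko and 50.5% a lower one. The block's median fold was 1.08 (0.12 on the log2 scale). Macrophage markers lay on the same side: 10 of 10 had a higher mean in ecko. So did 16 of 18 skeletal muscle and 7 of 8 fibroblast markers. Without control 3, however, most of the muscle markers had a lower mean in ecko, among them Acta1 (log2 fold change -0.10) and Ckm (-0.15). Myh3, Ttn and Neb stayed higher. Pericyte and smooth muscle markers had 6 of 10 higher, and cartilage markers 3 of 6. Fewer were higher among pan-endothelial (1 of 12), keratinocyte (2 of 10), adipocyte (2 of 8) and erythroid markers (0 of 7). The summed level of the macrophage markers was 800.0 to 881.7 CPM in ecko and 733.8 to 817.8 CPM in controls, and none was at 0. Their mean log2 CPM did not overlap, at 6.09 to 6.23 in ecko and 5.90 to 6.07 in controls. DESeq2 called 1 of the 10, Mpeg1 (DESeq2 adjusted p 0.000166), where it called 0.583% of all genes tested higher. The edgeR test without covariates called none of them. In an edgeR fit with the mean of the muscle markers as a covariate, no target passed. The part of the other cell types in the target values was not tested. Vegfa, the ligand of the deleted receptor (chromosome 17, 46016993 to 46032377), had 50.7, 58.4 and 63.5 CPM in ecko, against 63.8, 58.3 and 37.1 CPM in controls. Control 3 was the lowest of the 6 libraries and control 1 the highest. The log2 fold change was 0.12 (SE 0.20, adjusted p 0.879), with an interval of -0.35 to 0.58, and it was -0.08 without control 3. Slc2a1, the glucose transporter GLUT1, had 48.9, 52.0 and 55.5 CPM in ecko and 54.1, 40.7 and 33.1 CPM in controls. Control 1 lay inside the ecko range and the other controls below it. Its log2 fold change of 0.29 (SE 0.16, adjusted p 0.622) was 0.14 without control 3 and 0.50 without control 1, and its interval reached 0.66.

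Kdm3a, a histone H3 lysine demethylase induced by HIF, had the smallest p among the targets. It had 93.8, 83.9 and 96.6 CPM in ecko, against 87.3, 78.5 and 69.4 CPM in controls. Only ecko 2 and control 1 were out of order, and the log2 fold change was 0.22 (SE 0.09, adjusted p 0.532). Bnip3, a mitophagy receptor, had 89.6, 79.9 and 80.4 CPM in ecko and 70.2, 83.2 and 60.7 CPM in controls. Control 2 lay inside the ecko range (log2 fold change 0.22, SE 0.11, adjusted p 0.578). Ndrg1, a stress-responsive gene, had 88.8, 73.0 and 89.1 CPM in ecko, against 69.8, 82.0 and 71.6 CPM in controls. Here ecko 2 lay among the controls (log2 fold change 0.17, SE 0.09, adjusted p 0.620). Pdk1, the kinase that restrains pyruvate dehydrogenase under hypoxia, had 68.6, 68.2 and 74.2 CPM in ecko and 69.8, 62.7 and 65.2 CPM in controls. Its log2 fold change of 0.09 (SE 0.07, adjusted p 0.696) had an interval of -0.06 to 0.25.

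Several inducible targets were scarce in this tissue. Car9, a membrane carbonic anhydrase, had 21, 9 and 16 counts in ecko and 10, 14 and 20 counts in controls, so its interval ran from -0.79 to 0.93. Ankrd37, an ankyrin repeat gene induced by HIF, had 52, 80 and 80 counts in ecko, against 84, 47 and 23 counts in controls. Control 1 was the highest library and control 3 the lowest, and the log2 fold change of 0.47 (SE 0.40, adjusted p 0.739) was 0.14 without control 3. Adm, the vasodilator peptide adrenomedullin, had a mean of 4.88 ± 0.78 CPM in ecko and 4.86 ± 0.99 CPM in controls (SD, n = 3 each). The intervals of Car9 and Ankrd37 reached past a 1.5-fold increase. Mxi1 and Bhlhe40, which encode transcriptional repressors, had log2 fold changes of 0.06 and 0.01. The collagen prolyl hydroxylase genes P4ha1 and P4ha2 had log2 fold changes of opposite sign, 0.12 and -0.09, each with groups that overlapped. Slc16a3, the lactate exporter MCT4, had 16.9 ± 1.74 CPM in ecko and 15.3 ± 3.02 CPM in controls (SD, n = 3 each).

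**Figure D3:**
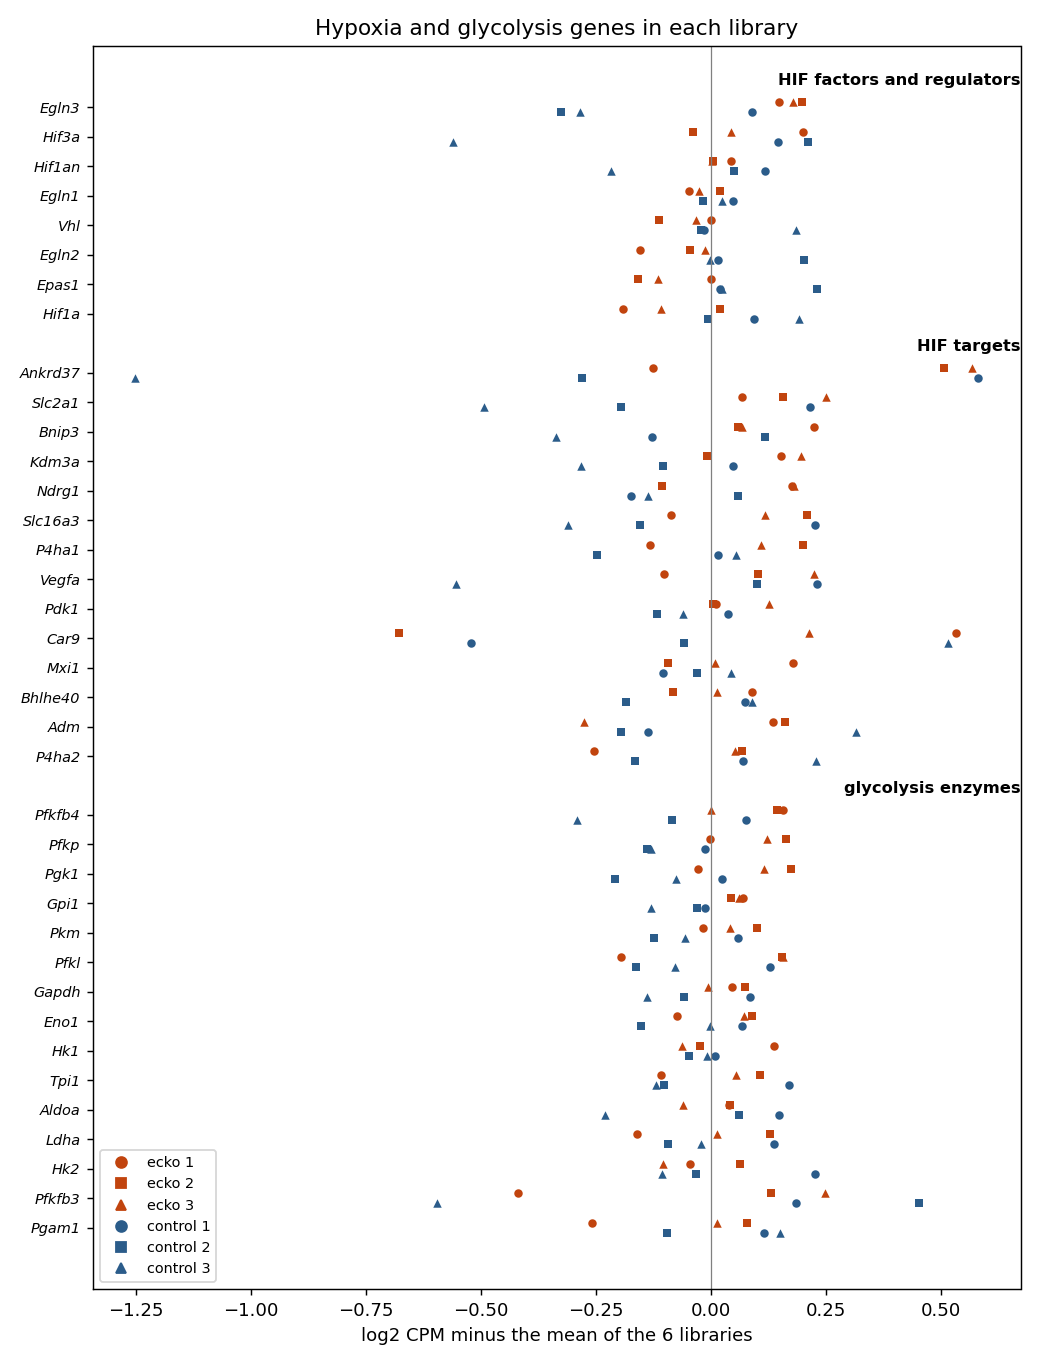
Level of each member in each library, as log2 CPM minus the mean of the 6 libraries, with ecko in orange and control in blue and the replicate number given by the marker shape. Egln3, Gpi1 and Pfkp have all 3 ecko points to the right of the controls, Epas1 and Egln2 have them to the left, and control 3 (blue triangle) lies far left for Ankrd37, Pfkfb3, Hif3a, Vegfa and Slc2a1.

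Most glycolysis enzymes were abundant, and their means differed little between the groups. Per transcript length, Gapdh was the most abundant, at 1016 CPM per kb in ecko and 966 in controls. The fructose bisphosphate aldolase gene Aldoa followed, with 471 in ecko and 469 in controls. The enzymes that commit glucose to the pathway were far lower. Hexokinase genes Hk1 and Hk2 had 14.0 and 9.90 CPM per kb in ecko and 13.6 and 10.3 in controls. Over the 15 enzymes 11 means were higher in ecko and 4 lower, and the median fold was 1.04 (0.06 on the log2 scale). The log2 fold changes ran from -0.11 for Pgam1 to 0.19 for Pfkfb4. Expected counts were not whole for Pfkp in 6 libraries, Eno1 in 4, Gapdh in 2, and Gpi1 and the target Slc16a3 in 1 each. Their reads were therefore partly shared with other genes, and these values are less certain. Gapdh, Aldoa, Pgk1, Eno1 and other abundant enzymes also have processed pseudogenes in the mouse genome, which can take or lend reads.

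The groups did not overlap in 2 of the 15 enzymes, Gpi1 and Pfkp, or 13.3%, against 15.7% of all genes tested. With Pgk1, these had the smallest unadjusted p in the block. Gpi1, glucose-6-phosphate isomerase, had 263.5, 258.7 and 261.8 CPM in ecko, against 248.9, 246.0 and 229.4 CPM in controls. All ecko values were higher, and the difference was small, at 0.11 on the log2 scale (SE 0.06, adjusted p 0.593), with an interval of -0.02 to 0.24. Pfkp, the platelet-type phosphofructokinase, had 45.6, 51.1 and 49.7 CPM in ecko and 45.3, 41.5 and 41.7 CPM in controls. Ecko 1 and control 1 were almost equal (log2 fold change 0.19, SE 0.08, adjusted p 0.532). Pgk1, the first ATP-yielding enzyme, had 258.5, 297.2 and 285.3 CPM in ecko, against 267.7, 228.1 and 249.8 CPM in controls. Control 1 lay above ecko 1 (log2 fold change 0.17, SE 0.08, adjusted p 0.553).

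Their promoters are shown because these 3 enzymes had the smallest p in the block, and they differ in the hypoxia core. The layout is that of the Egln3 sequence, with the core in capitals.
Gpi1 (chr7:34230337-34230586, minus strand): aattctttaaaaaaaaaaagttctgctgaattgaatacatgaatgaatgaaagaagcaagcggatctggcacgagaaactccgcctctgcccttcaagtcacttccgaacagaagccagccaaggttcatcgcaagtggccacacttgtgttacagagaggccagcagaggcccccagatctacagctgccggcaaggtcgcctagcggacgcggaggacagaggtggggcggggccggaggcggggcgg
Pfkp (chr13:6648772-6649021, minus strand): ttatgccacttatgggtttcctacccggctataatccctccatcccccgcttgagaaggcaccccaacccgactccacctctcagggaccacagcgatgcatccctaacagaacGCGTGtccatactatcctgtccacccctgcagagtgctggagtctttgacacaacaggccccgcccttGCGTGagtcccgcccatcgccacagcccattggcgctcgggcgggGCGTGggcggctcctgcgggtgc
Pgk1 (chrX:106186850-106187099, plus strand): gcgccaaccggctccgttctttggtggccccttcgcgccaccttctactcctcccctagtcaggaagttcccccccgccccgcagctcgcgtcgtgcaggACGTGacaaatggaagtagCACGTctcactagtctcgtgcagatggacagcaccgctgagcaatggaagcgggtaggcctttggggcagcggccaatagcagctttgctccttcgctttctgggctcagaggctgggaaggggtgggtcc
Gpi1 held 0 cores in this stretch, Pfkp held 3 and Pgk1 held 2, at 150 and 131 bases before the start. All 3 genes had a higher mean in ecko, none past the test.

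In the other 13 enzymes, Pgk1 among them, the groups overlapped. Hk2, the inducible hexokinase, had 53.9, 58.1 and 51.7 CPM in ecko and 65.0, 54.3 and 51.7 CPM in controls. Control 1 was the highest library (log2 fold change -0.06, SE 0.09, adjusted p 0.854). Pfkfb3 makes the fructose 2,6-bisphosphate that drives glycolysis in sprouting endothelium. It had 41.4, 60.6 and 65.7 CPM in ecko, against 62.9, 75.8 and 36.6 CPM in controls. It varied within both groups more than any other enzyme of the block, from control 3 at the bottom to control 2 at the top. Its log2 fold change of -0.07 (SE 0.31, adjusted p 0.957) had an interval of -0.85 to 0.72, which reached past 1.5-fold in both directions. Ldha, which reduces pyruvate to lactate, had 405, 495 and 457 CPM in ecko and 498, 425 and 446 CPM in controls. Ecko 1 was the lowest and control 1 the highest library. Its log2 fold change of -0.01 (SE 0.09, adjusted p 0.974) had an interval of -0.20 to 0.18.

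Single libraries set much of the spread among the members. Control 3 was the lowest of the 6 libraries for 15 of the 37 members (40.5%), where it was the lowest for 29.3% of all genes tested. Control 1 was the highest library for 10 members (27.0%), against 13.6% of all genes. The mean log2 CPM of the target block was 4.97, 4.96 and 5.04 in ecko, against 4.95, 4.81 and 4.76 in controls. Control 1 was thus almost level with ecko 2, and the other controls were lower. For the enzymes it was 7.40 to 7.56 in ecko and 7.34 to 7.55 in controls, with ecko 1 below control 1 and level with control 2. Regulators had 5.76, 5.75 and 5.75 in ecko and 5.82, 5.80 and 5.68 in controls.

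The skeletal muscle markers, which mark a tissue rich in glycolytic enzymes, shared the low value of control 3. Their mean was 7.88, 7.76 and 7.64 log2 CPM in ecko, against 7.99, 7.76 and 7.19 in controls. Of these 18 markers 16 had a higher mean in ecko, but without control 3 most had a lower one. Their summed level was 9294 to 11390 CPM in ecko and 6802 to 12040 CPM in controls, and none was at 0. Erythroid markers were also lowest in control 3, at 5.24 log2 CPM, against 5.63 to 5.99 in ecko and 6.25 and 6.44 in the other controls. An edgeR fit with the mean of the skeletal muscle markers as a covariate called no member. In that fit the log2 fold changes of Vegfa, Slc2a1 and Epas1 were 0.07, 0.24 and -0.20, against 0.12, 0.29 and -0.18 without the covariate. The part of red cell content in the members' values was not tested. Over all genes tested, the mean log2 CPM was 4.48 in control 3 and 4.53 to 4.55 in the other libraries.

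**Figure D4:**
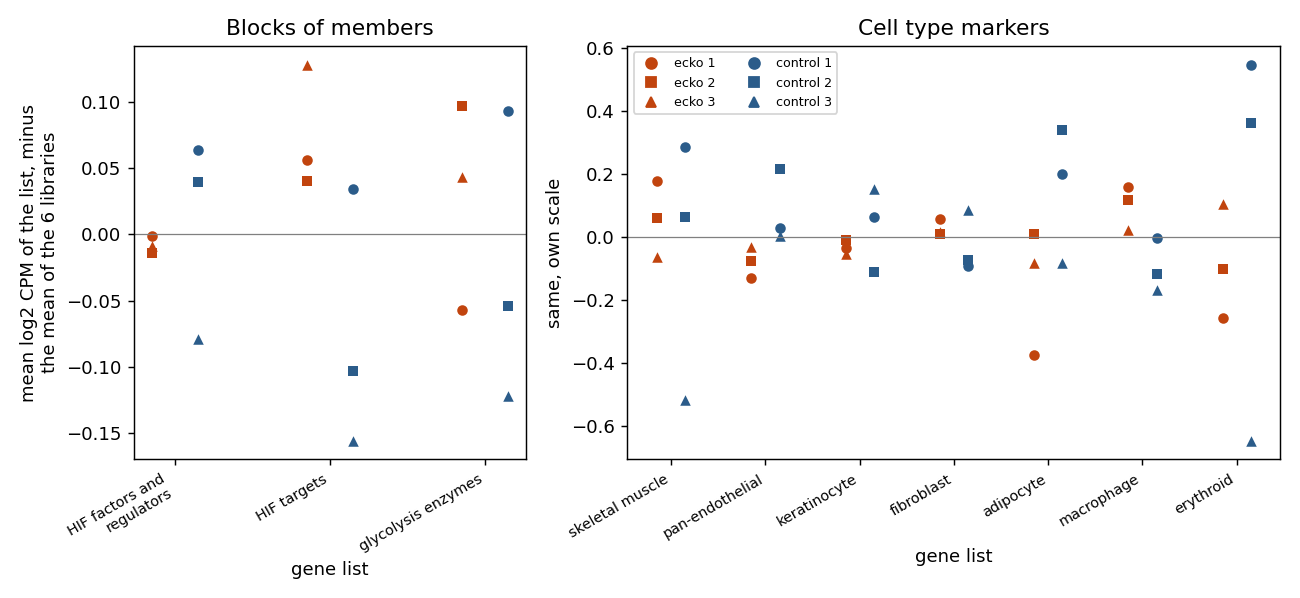
Mean log2 CPM of each block of members (left) and of each cell type marker list (right, with its own scale), minus the mean of the 6 libraries, for ecko in orange and control in blue. Control 3 is the lowest library for all 3 blocks, the skeletal muscle markers and the erythroid markers, and the pan-endothelial means of the ecko libraries lie below those of the controls.

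Further genes of the pathway, in 3 lists drawn up by role, held 0 genes past the edgeR test without covariates. At an unadjusted p under 0.05, 0 of the 13 partners and regulators tested were higher and 1 lower. Of the 41 targets tested 4 were higher and 3 lower, and of the 33 glycolysis and lactate genes 1 was higher and 4 lower. Over all genes tested the shares at that level were 4.92% higher and 4.1% lower. Of 13 HIF partners and regulators, 10 had a lower mean in ecko and the median was -0.08 on the log2 scale. Siah2, a ubiquitin ligase that targets EGLN enzymes, had 8.90, 11.2 and 10.8 CPM in ecko, against 12.3, 12.1 and 13.3 CPM in controls. All ecko values were lower (log2 fold change -0.29, SE 0.12, adjusted p 0.539). P4htm, a transmembrane prolyl hydroxylase, had 1.69 ± 0.55 CPM in ecko and 2.48 ± 0.11 CPM in controls (SD, n = 3 each; adjusted p 0.571). Elob, an elongin of the VHL complex, and Siah1a, a further ubiquitin ligase, had log2 fold changes of -0.15 and -0.29. That of Siah1a was 0.000894 without control 3. The pairing partner Arnt had a log2 fold change of 0.03.

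Of 41 further HIF targets tested, 27 had a higher mean in ecko and the median was 0.05 on the log2 scale. The groups did not overlap in 6 genes higher and 3 lower, and in 15.7% of all genes tested in either direction. Ndufa4l2, a mitochondrial HIF target, had 52.3 ± 3.34 CPM in ecko and 32.8 ± 5.31 CPM in controls (SD, n = 3 each; edgeR adjusted p 0.150). Ccng2, a cyclin gene, had 92.4, 73.5 and 80.4 CPM in ecko and 65.5, 64.6 and 55.7 CPM in controls. All ecko values were higher (log2 fold change 0.41, SE 0.10, edgeR adjusted p 0.300). DESeq2 called 2 of the 41, both higher, where it called 0.583% of all genes tested higher. They were Ndufa4l2 (DESeq2 adjusted p 0.000107) and Ccng2 (DESeq2 adjusted p 0.0285). Ndufa4l2 also passed in edgeR with the replicate block (adjusted p 0.00649) and with the skeletal muscle covariate (adjusted p 0.0482), and Ccng2 did not (adjusted p 0.0703 and 0.0721). Ndufa4l2 did not pass in edgeR with a covariate for the Y-linked class (adjusted p 0.166) or without control 3 (adjusted p 0.155). The fit with the replicate block called 0.59% of all genes tested higher, and the number called with the muscle covariate is given with the alternatives below. Car12, a carbonic anhydrase gene related to Car9 and far more abundant here, had 102.3, 97.1 and 96.4 CPM in ecko and 91.2, 76.4 and 75.2 CPM in controls. Its groups did not overlap (log2 fold change 0.28, SE 0.08, adjusted p 0.402). Gbe1, the glycogen branching enzyme, was lower in every ecko library, with 15.2 to 16.99 CPM in ecko and 19.3 to 21.1 CPM in controls (edgeR adjusted p 0.494).

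Of 33 further glycolysis and lactate genes tested, 20 had a lower mean in ecko and the median was -0.05 on the log2 scale. Pdk4, the pyruvate dehydrogenase kinase induced by fasting, had 54.6, 41.4 and 63.3 CPM in ecko, against 38.2, 30.6 and 16.3 CPM in controls. All ecko values were higher, although the libraries varied widely. The log2 fold change was 0.90 (SE 0.33, adjusted p 0.539), and 0.63 without control 3. Gpd1, the cytosolic glycerol-3-phosphate dehydrogenase, had 100.7, 175.2 and 121.7 CPM in ecko and 240.5, 212.7 and 206.6 CPM in controls. All ecko values were lower (log2 fold change -0.73, SE 0.20, adjusted p 0.459). Adipocytes express Gpd1 strongly, and 6 of the 8 adipocyte markers also had a lower mean in ecko. Their summed level was 1282 to 1621 CPM in ecko and 1397 to 1982 CPM in controls, and their part in the Gpd1 values was not tested. Mpc2, a subunit of the mitochondrial pyruvate carrier, had 39.4 ± 4.49 CPM in ecko and 47.2 ± 2.68 CPM in controls (SD, n = 3 each; adjusted p 0.499). Bpgm, which makes 2,3-bisphosphoglycerate in red cells, had 36.7 ± 2.10 CPM in ecko and 42.3 ± 1.67 CPM in controls (SD, n = 3 each; adjusted p 0.513). All 7 erythroid markers tested also had a lower mean in ecko, and none was past the test. Their summed level was 1561 to 2050 CPM in ecko and 1151 to 2711 CPM in controls. The part of these markers in the Bpgm values was not tested.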

How the data were processed

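Poly(A)-selected RNA of ear skin was sequenced in 3 ecko and 3 control libraries. The deposited table holds unscaled expected counts per gene, a unit inferred from the values, since 10.1% to 10.4% of them in a library are fractional. Per the submitters' processing notes, the build was GRCm38.p6, and RSEM 1.3.1, Bowtie2 2.4.5 and HISAT2 2.2.1 are listed without roles. The annotation and strand setting are not given in the sources used here, so antisense reads could not be told apart.

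Counts were rounded and tested with edgeR 4.0.16 (R 4.3.3), using filterByExpr with a minimum count of 10, TMM scaling and robust glmQLFit, two-sided, ecko minus control. The SE is the size of the log2 fold change over the root of F, and 95% intervals use edgeR's degrees of freedom. They are not adjusted for the number of genes. Reads carry no molecular identifiers. CPM were scaled after TMM. Mean log2 CPM of lists used a prior count of 2. Levels per kb used the longest GENCODE coding transcript. An exact permutation test of 3 against 3 libraries cannot go below 0.1 and was not used.

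Values in every library were given for 12 core members, for members whose groups do not overlap, and for the 3 smallest p in each block. In each further list the 4 smallest p were named. Other members and Arnt were named after their values were seen. The members and lists were chosen with earlier results of these data known. Alternatives were DESeq2 1.42.0 and its size factors, 2 other filters, a replicate block, a skeletal muscle covariate, leaving out the 20 most abundant genes and leaving out each library. After seeing the data, a covariate for the Y-linked class was added. Fits were tested on simulated data.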

Additional observations from a re-analysis of the deposited data

How the results depend on the processing

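Under all 14 alternatives 0 of the 37 members were called in either direction, and the lowest adjusted p was 0.0969, for Egln3 without control 1. Kdr stayed past the threshold, at -2.14 to -1.95 on the log2 scale without any single library. The number of all genes called depended on the model. For genes higher in ecko it was 87 with DESeq2, 88 with the replicate block, 59 with the skeletal muscle covariate, 1 with the covariate for the Y-linked class and 0 to 2 with 1 library left out. For lower genes it was 26 with DESeq2, 10 with the replicate block and 9 with the muscle covariate. The cause was not tested. What the replicate numbers mark is not stated. Deviations from the group means correlated at 0.182, -0.293 and -0.0924 for equal numbers, against 0.405 for control 2 with ecko 3. Control 2 and ecko 3 are also the libraries with almost no Ddx3y reads, so these correlations cannot settle whether equal numbers were paired. Members whose groups do not overlap numbered 3 to 12 higher and 2 to 6 lower with 1 library left out, when the shares over all genes were 10% to 15% and 10.9% to 15.7%.

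The block medians moved by less than the spread between replicates under every alternative. With 1 library left out they ran from -0.08 to -0.06 for the regulators, 0.08 to 0.14 for the targets and 0.03 to 0.13 for the enzymes. In 15 members, none with a log2 fold change over 0.12 in size, the sign changed at least once. With the muscle covariate Hif1an was -0.0126 and Aldoa -0.0409. With 1 library left out, Hif3a ran from -0.101 to 0.233, Hif1an from -0.0615 to 0.0932, Vegfa from -0.0800 to 0.269, Car9 from -0.208 to 0.38 and Adm from -0.089 to 0.191. Mxi1 ran from -0.0164 to 0.125, Bhlhe40 from -0.0762 to 0.0633, P4ha2 from -0.192 to 0.0103, Hk1 from -0.0313 to 0.0733 and Hk2 from -0.124 to 0.0402. Pfkfb3 ran from -0.307 to 0.163, Aldoa from -0.0936 to 0.0828, Tpi1 from -0.0144 to 0.13, Eno1 from -0.00425 to 0.105 and Ldha from -0.0813 to 0.0585. Car9 had the lowest counts of the members, 9 to 21 a library.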

Other observations

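The muscle-type isoforms of 3 glycolysis steps shared the low value of control 3 in the muscle markers. Eno3, the muscle enolase, had 314, 297 and 273 CPM in ecko and 322, 320 and 229.5 CPM in controls. Pgam2, the muscle phosphoglycerate mutase, had 77.6, 77.0 and 70.2 CPM in ecko, against 89.9, 74.4 and 51.6 CPM in controls. Pfkm, the muscle phosphofructokinase, had 146, 123 and 124 CPM in ecko and 143, 130 and 94.8 CPM in controls. Control 3 was the lowest library for each, and none of the 3 passed the edgeR test.

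Isoform shares of the first steps overlapped between the groups. Per transcript length, Hk1 made up 58.5 ± 2.27% of the Hk1 and Hk2 level in ecko and 57.0 ± 2.71% in controls (SD, n = 3 each). Pfkp made up 40.9 ± 2.04% of the Pfkl and Pfkp level in ecko and 39.0 ± 1.36% in controls. That sum leaves out Pfkm, which had higher CPM than either gene in every library, so it is not a share of all phosphofructokinase transcripts. These shares were computed after the genes' values were seen and were not tested.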
